A study of Sus scrofa with 9 samples.

Results

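The proprotein convertases are proteases that cut larger precursor proteins into their active forms, and 5 of their genes, *PCSK1*, *PCSK5*, *PCSK6*, *PCSK7* and *FURIN*, were followed here among 16562 genes measured in cultured pig fat cells. They were picked by gene symbol with earlier results of these libraries known. *PCSK1* was selected on its high level after siRNA against lnc*PLAAT3*-AS, the antisense lncRNA under study. Values of the 5 genes in siRNA against control, and in overexpression against siRNA, which uses the same siRNA libraries, are therefore given as a description without a test. The comparison of overexpression with control was tested.

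Preadipocytes came from the back fat of a female Rongchang piglet and were induced with insulin, IBMX and dexamethasone. The labels place every library at day 8. Each group had 3 libraries of bulk RNA, called biological replicates in the series. The study's methods state that a single pig supplied the cells for its independent repeats. The p-values therefore reflect how repeats within 1 animal vary. The control group (genotype label WT) served both comparisons. It is called a blank control in the series and a negative control in the paper, where an si-NC construct is named. The overexpression group received a plasmid with lnc*PLAAT3*-AS, and the siRNA group (genotype label inhibition) an siRNA against it, both with a lipid reagent that acts on whatever cells take it up. Cells with an empty plasmid and the level of lnc*PLAAT3*-AS itself were not analysed here.

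Convertases recognise pairs of basic residues in a precursor and cut behind them. *PCSK1* encodes the enzyme of the regulated secretory pathway, best known from neurons and endocrine cells, where it works in dense core granules on prohormones such as pro-opiomelanocortin, proinsulin and pro-TRH. People who lack it develop early obesity. *FURIN* and *PCSK7* encode membrane-bound enzymes of the trans-Golgi network that are present in most cells. *PCSK5* and *PCSK6* encode enzymes that can be secreted and held on heparan sulfate at the cell surface, and they act on precursors of the TGF-β family.

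Libraries held between 16724902 and 17495882 counts, and the 5 genes had whole counts in each of them. The variance between replicates was 4.605 to 13.0 times the counting noise in control and siRNA pairs and 1.41 to 1.60 times in overexpression pairs. The labels call the cells adipocytes, but *ADIPOQ*, the adiponectin gene, had 11, 9 and 0 counts over the control, overexpression and siRNA libraries, and *LEP*, the leptin gene, had 0, 2 and 0. Other adipocyte genes were present. *LPL*, the lipoprotein lipase gene, had 3367, 4372 and 21085 counts, *FABP4*, a fatty acid carrier gene, 405, 701 and 316, and *PNPLA2*, the adipose triglyceride lipase gene, 3770, 3377 and 3567. *PPARG* and *CEBPA*, markers of adipocyte differentiation in the paper, had 385, 288 and 85 counts and 794, 916 and 284 counts. *CIDEC* had 69, 94 and 33. The 11 adipocyte markers summed to between 167 and 194.7 CPM in control, 203 and 210.5 after overexpression and 403 and 580.2 after siRNA. *LPL* alone had means of 65.1, 84.0 and 418 CPM in the same order, so it made up most of the sum after siRNA. Of 9 adipocyte markers tested, 2 rose and 5 fell after siRNA (median log2 fold change -0.33, edgeR), beside 29.5% and 29.9% of all tested genes. The 10 fibroblast markers summed to between 133658 and 135903 CPM in control, 156604 and 159201 after overexpression and 104108 and 112145 after siRNA. *COL1A1* alone had means of 48646, 64832 and 16802 CPM in the same order, so it weighs heavily in these sums. Of the 10 fibroblast markers, 6 rose and 4 fell after siRNA, beside the same shares of all genes. After overexpression 3 rose and 7 fell, beside 23.9% and 23.4%. CPM are counts scaled to the library size after TMM normalisation. In bulk RNA, fewer cells of a type and less RNA per cell cannot be told apart.

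*PCSK1* was nearly silent in control cells and was the highest of the 5 convertases after siRNA. The raw counts were 7, 4 and 66 in control replicates 1, 2 and 3, 0, 2 and 1 in the overexpression libraries, and 5679, 5069 and 4254 in the siRNA libraries. No siRNA library came near any other library, and control replicate 3 stood above the other controls. On the length-scaled FPKM values the gene lay at 0.05 to 0.79 in control, 0 to 0.02 after overexpression and 53.4 to 71.2 after siRNA.

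**Figure D1:**
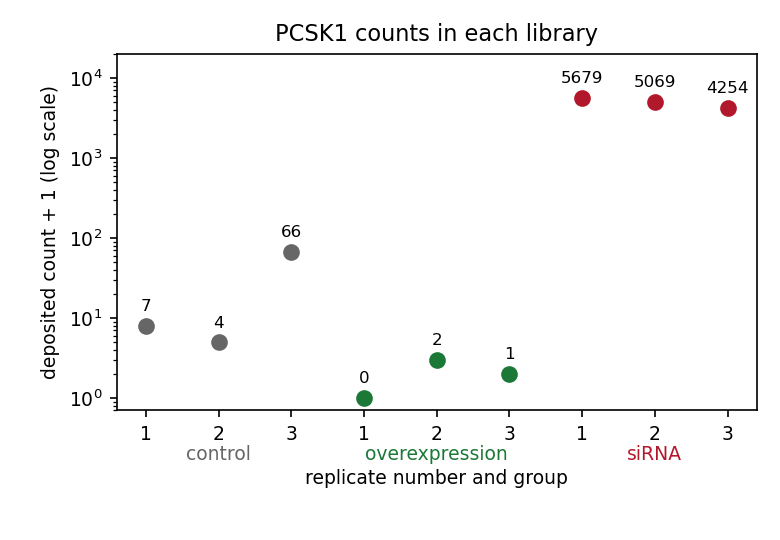
Deposited *PCSK1* count plus 1 (log axis) in each of the 9 libraries, with the count written above each point. The siRNA libraries lie between 4254 and 5679 counts, the overexpression libraries between 0 and 2, and control replicate 3, with 66, lies above control replicates 1 and 2.

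In sums over the libraries of a group, *PCSK1* had 15002 counts after siRNA and 77 in control, a ratio of 199 (95% counting interval 159 to 252). Most of the control counts came from 1 library. Without control replicate 3 the ratio was 931 (520 to 1866). These intervals cover counting error only. In the fit of all genes its log2 fold change of 7.63 (SE 0.48) placed it as number 6 from the top of 12721 genes tested. Since *PCSK1* was selected on its level after siRNA, this place is a description and no evidence of its own. *PCSK1* passed the filter on low counts through the siRNA group, since all 3 siRNA libraries but only 1 control library and 0 overexpression libraries reached the minimum of 0.584 CPM.

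After overexpression *PCSK1* had 3 counts in all, a ratio to control of 0.0387 (95% counting interval 0.00781 to 0.117), and 0.181 (0.0324 to 0.685) without control replicate 3. The groups did not overlap. The log2 fold change of -4.53 (SE 2.02) did not pass (adjusted p = 0.115, edgeR's quasi-likelihood test), whereas it passed with DESeq2 (adjusted p = 0.00240). Over the alternatives in which the gene was tested, the adjusted p lay between 0.00240 and 0.231. At so few counts the size of the difference rests on control replicate 3.

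*FURIN*, which encodes a convertase found in nearly all cells, was expressed in every library. Its FPKM values were 20.9, 23.0 and 25.3 in control, 24.5, 25.3 and 23.4 after overexpression, and 31.2, 32.7 and 29.9 after siRNA. The siRNA libraries all lay above the other 6, while control and overexpression overlapped. Against control the log2 fold change was 0.44 (SE 0.07) after siRNA, a level 1.36-fold that of control. After overexpression it was 0.08 (95% interval -0.08 to 0.24, adjusted p = 0.401, edgeR).

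*PCSK7*, the most distant relative among these enzymes, varied least between groups. It stood at 10.88, 10.68 and 11.71 FPKM in control, at 12.04, 10.46 and 11 after overexpression and at 9.96, 10.42 and 9.27 after siRNA. In FPKM the siRNA libraries lay just below all others, but in CPM siRNA replicate 2 (36.44) was above control replicate 2 (36.37), so the groups overlapped. The log2 fold change was -0.16 (SE 0.08) after siRNA. After overexpression it was 0.00 (95% interval -0.16 to 0.17, adjusted p = 0.970, edgeR).

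The 2 secreted convertases lay on opposite sides of control after siRNA. *PCSK6*, also called PACE4, was the highest of the 5 in control, with 30.8, 29.2 and 27.1 FPKM. It had 29.4, 30.6 and 28.9 FPKM after overexpression and 9.91, 10.3 and 10.5 after siRNA. The siRNA libraries lay far below the other 6, at a log2 fold change of -1.50 (SE 0.06) against control, a level 0.353-fold that of control.

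*PCSK5*, which cuts the precursor of GDF11 in the mouse, had 13.88, 13.14 and 13.73 FPKM in control, 14.11, 14.6 and 15.5 after overexpression and 27.22, 24.26 and 24.96 after siRNA. All siRNA libraries were above all others. The log2 fold change after siRNA was 0.90 (SE 0.06), a level 1.87-fold that of control. After overexpression the libraries were just above those of control without overlap, at 0.09 (95% interval -0.03 to 0.22, adjusted p = 0.221, edgeR). For *PCSK6* this difference was 0.03 (95% interval -0.09 to 0.15, adjusted p = 0.733, edgeR), with overlapping groups.

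**Figure D2:**
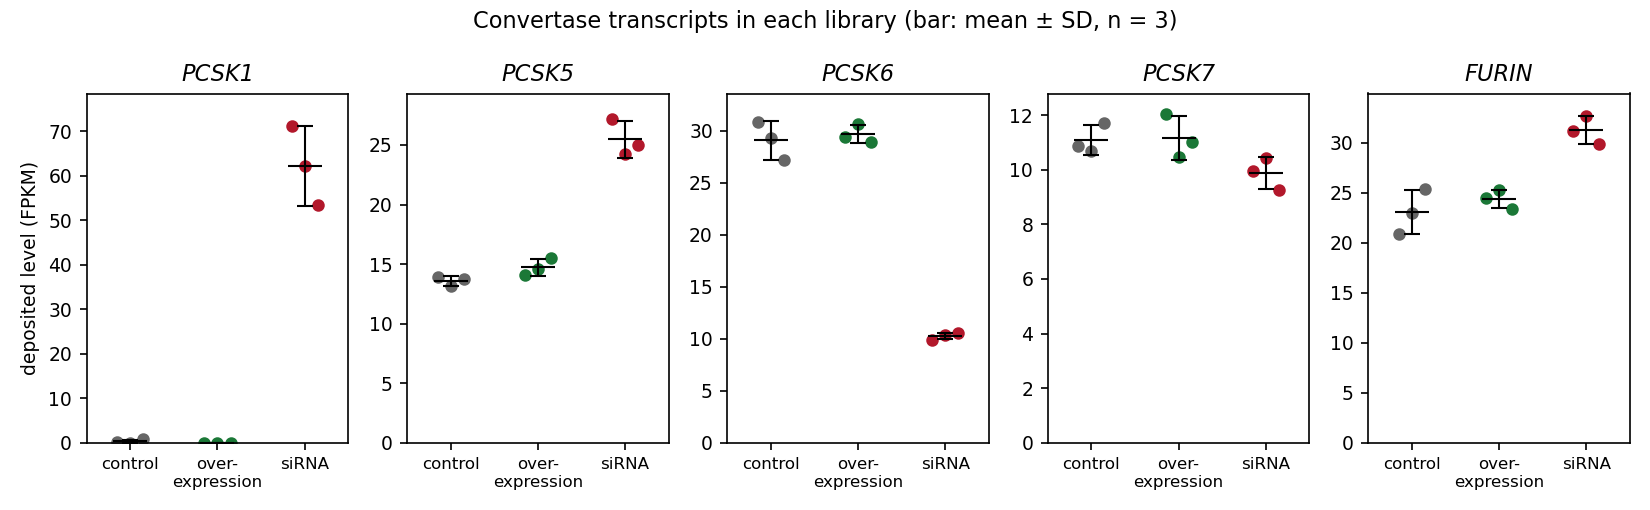
Deposited FPKM of each convertase (linear axis from 0, 1 panel a gene) in the control, overexpression and siRNA libraries, with the mean and SD of 3 libraries. After siRNA *PCSK1* (53.4 to 71.2), *PCSK5* (24.3 to 27.2) and *FURIN* (29.9 to 32.7) lie above control, *PCSK6* (9.91 to 10.5) lies below it, and *PCSK7* (9.27 to 10.4) lies close to it.

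After overexpression 0 of the 5 convertases passed at an adjusted p under 0.05 in edgeR, where 23.9% of all tested genes passed as higher and 23.4% as lower. The count was also 0 at an unadjusted p under 0.05 and with limma on both FPKM scales, and 1 (*PCSK1*) with DESeq2. Between overexpression and siRNA the log2 differences were -12.16 for *PCSK1*, -0.81 for *PCSK5*, 1.53 for *PCSK6*, 0.17 for *PCSK7* and -0.36 for *FURIN*.

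The order of the 5 by FPKM was the same in control and after overexpression. *PCSK6* was followed by *FURIN*, *PCSK5*, *PCSK7* and *PCSK1*, and no neighbours in this order had overlapping ranges. After siRNA the order was *PCSK1* (62.3 ± 8.93, SD, n = 3), *FURIN* (31.2 ± 1.38), *PCSK5* (25.5 ± 1.55), *PCSK6* (10.2 ± 0.302) and *PCSK7* (9.88 ± 0.579). Only *PCSK6* and *PCSK7* overlapped there.

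Control cells had a summed FPKM of 77.1 ± 1.38 for the 5 genes (SD, n = 3). The sum was 79.9 ± 1.08 after overexpression and 139 ± 10.8 after siRNA. Without *PCSK1* the sums were 76.8 ± 0.970, 79.9 ± 1.07 and 76.9 ± 1.95. The higher *FURIN* and *PCSK5* and the lower *PCSK6* after siRNA left the sum of those 4 close to that of control. *PCSK1* made up 44.6% ± 2.98 of the summed FPKM after siRNA and 0.396% ± 0.527 in control. *PCSK6* made up 7.40% ± 0.787 after siRNA and 37.7% ± 2.96 in control, and *FURIN* 22.5% ± 1.45 and 29.9% ± 2.48. The share of *PCSK5* was 18.4% ± 1.08 after siRNA and 17.6% ± 0.459 in control.

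**Figure D3:**
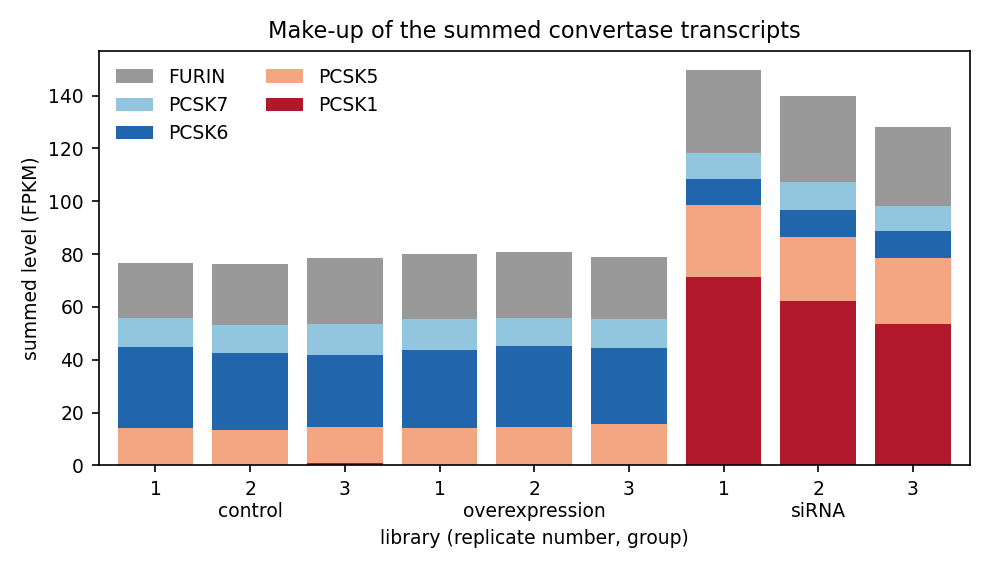
FPKM of the 5 convertases stacked for each library, grouped by condition. The stacks reach 76.1 to 78.7 in control, 78.8 to 81.0 after overexpression and 128 to 149 after siRNA, where *PCSK1* makes up 41.7% to 47.6% of each.

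Some relatives of these enzymes were also measured, while *PCSK2* was not analysed here. *MBTPS1*, the site-1 protease that cuts SREBP in the Golgi, had log2 fold changes of -0.01 and -0.05 (adjusted p = 0.940 and 0.462). *PCSK4*, an enzyme of germ cells, had 5, 7 and 10 counts over the control, overexpression and siRNA libraries and was not tested.

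*PCSK1N* encodes proSAAS, an inhibitor of the *PCSK1* enzyme. Its CPM was 44.1 ± 4.13 in control (SD, n = 3), 35.5 ± 1.34 with overexpression and 48.5 ± 5.59 with siRNA. It fell after overexpression (log2 fold change -0.31, adjusted p = 0.00428, edgeR), and after siRNA its change was 0.14 (95% interval -0.03 to 0.31, adjusted p = 0.148). *SCG5*, which encodes the 7B2 chaperone of the *PCSK2* enzyme, had 20, 23 and 31 counts and was not tested. *GBP2*, an interferon-induced GTPase that inhibits furin in human cells, rose by 0.73 after overexpression and by 1.58 after siRNA (adjusted p = 0.000107 and 2.51e-10). Its counts were not whole in 8 of 9 libraries, so that reads may be shared with a related gene and its values are uncertain. *GBP5* and *SERPINB8* were not analysed here.

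Enzymes that finish the peptides after a convertase has cut were listed together with the cathepsin genes *CTSL* and *CTSB*, and all 9 were measured. Of the 9, 5 rose and 3 fell after siRNA, with a median log2 fold change of 0.27, where 29.5% of all tested genes rose and 29.9% fell. After overexpression 3 rose and 2 fell, with a median of 0.29, beside 23.9% and 23.4% of all tested genes. Over all tested genes the medians were -6.37e-04 and 0.00599. *CPE*, the carboxypeptidase that trims basic residues in dense core granules, was low, at 5.59 ± 0.347 CPM in control and 4.48 ± 0.421 after siRNA (SD, n = 3). Its fall of 0.32 after siRNA had an adjusted p of 0.0440 and was lost in 11 of 17 alternatives. *CPD*, a carboxypeptidase of the trans-Golgi network, was higher at 108 ± 13.1 CPM. *CPD* rose by 0.31 after overexpression and by 0.33 after siRNA (adjusted p = 0.00166 and 0.000620, edgeR).

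*PAM*, which amidates peptide ends, rose by 0.29 and 0.30 in the same order (adjusted p = 0.000733 and 0.000376). *CTSL*, the cathepsin L gene, whose enzyme can also process prohormones, had the largest rise of the 9 after siRNA, from 36.1 ± 9.35 to 264 ± 9.48 CPM (log2 fold change 2.87, SE 0.14, adjusted p = 1.74e-08). *CPM*, a carboxypeptidase of the cell surface, fell by 1.86 after siRNA and rose by 0.56 after overexpression (adjusted p = 6.99e-07 and 0.00974), the latter lost without overexpression replicate 1 (adjusted p = 0.0635). *QPCT* and *QPCTL*, which form pyroglutamate ends, had changes of -0.59 and 0.53 after siRNA (adjusted p = 0.0138 and 2.02e-05). The change of *QPCT* was lost without control replicate 3 or siRNA replicate 2 (adjusted p up to 0.0848). After overexpression *CPZ*, a matrix-bound carboxypeptidase, fell by 0.43 (adjusted p = 7.68e-05) and *QPCTL* by 0.30 (adjusted p = 0.0118, up to 0.0772 without control replicate 3 or overexpression replicate 1).

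Granules are the site where the *PCSK1* enzyme works, and 7 of 11 granin and granule genes had enough counts to be tested. After siRNA 4 of them rose and 2 fell (median 0.58), beside 29.5% and 29.9% of all genes. After overexpression 3 fell (median 0.06), beside 23.4% of all genes, and 4 did not pass. *PTPRN*, which encodes the granule membrane protein IA-2, had 161, 163 and 161 counts in control and 661, 792 and 588 after siRNA. It rose by 2.10 after siRNA (SE 0.11, adjusted p = 3.93e-13) and fell by 0.57 after overexpression (adjusted p = 0.00148). *CHGB*, encoding chromogranin B, is among the 4 and had 11 counts over the control libraries and 86 over the siRNA libraries. It reached the minimum of 0.584 CPM in the siRNA libraries only, so that its passing had to go with a difference and no p is given.

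*VGF*, a granin and itself a neuropeptide precursor, was the most abundant of these in control at 94.0 ± 20.4 CPM and fell in both comparisons, by 0.92 after siRNA and by 1.55 after overexpression (adjusted p = 5.47e-05 and 2.49e-06). *RAB27B*, a small GTPase of granule docking, fell by 1.14 after siRNA (adjusted p = 0.000119), and *RAB3D*, another one, fell by 0.54 after overexpression and rose by 0.68 after siRNA (adjusted p = 3.87e-07 and 1.66e-09). The defining granin *CHGA* had 13, 18 and 12 counts over the control, overexpression and siRNA libraries.

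Neuroendocrine markers were counted beside *PCSK1*. Of 10 listed genes 8 were measured and 4 tested, of which 2 rose and 2 fell after siRNA (median 0.25), beside 29.5% and 29.9% of all genes, and 3 rose after overexpression (median 0.76), beside 23.9%. Of these, *CHGB* and *STMN2* reached the minimum of the filter in all libraries of 1 group only, siRNA and overexpression, respectively. The 8 measured markers summed to between 161 and 194 CPM in control, 254 and 277 after overexpression and 155 and 169 after siRNA, nearly all of it from *UCHL1* and *ENO2*. *NEUROD1* was at 0 counts in every library. The 10 macrophage markers summed to between 3.27 and 5.31 CPM in control, 28.3 and 29.1 after overexpression and 6.53 and 8.90 after siRNA. *CD163*, *C1QB* and *ADGRE1* were at 0 counts both in control and after siRNA. Of 8 macrophage markers tested, 1 rose and 1 fell after siRNA, beside 29.5% and 29.9% of all genes. After overexpression 7 of the 8 rose, beside 23.9%. Of these 7, *CD163*, *C1QA*, *C1QB*, *CSF1R* and *SIGLEC1* reached the minimum of the filter in the overexpression libraries only. Their passing had to go with a difference, so the count of 7 is no evidence of its own. *CD68* and *MRC1* reached the minimum in all control libraries as well, and rose by 2.12 and 2.06. The part of macrophage genes in the results after overexpression was not tested.

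Precursors of hormones and neuropeptides, of which some are known substrates of the *PCSK1* enzyme and others of furin-type enzymes, were measured next. Of 25 prohormone genes listed, 19 were in the file and 8 were tested. After siRNA 4 rose and 2 fell (median 0.30), beside 29.5% and 29.9% of all genes. After overexpression 2 rose (median 0.11), a share close to the 23.9% of all genes, and 6 did not pass. *TRH*, which encodes the precursor of thyrotropin-releasing hormone, had 71, 66 and 79 counts in control, 53, 72 and 71 after overexpression and 2978, 3054 and 4260 after siRNA. All siRNA libraries lay far above the other 6. The rise was 5.60 on the log2 scale (SE 0.16, adjusted p = 1.21e-11), to a level of 144 FPKM.

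*PENK*, the proenkephalin gene, had 210, 229 and 301 counts in control, 376, 354 and 386 after overexpression and 1571, 1609 and 939 after siRNA. It rose by 2.51 after siRNA (SE 0.26, adjusted p = 0.000152). After overexpression its change was 0.58 (95% interval -0.11 to 1.28, adjusted p = 0.147), although all 3 libraries were above those of control. *PNOC*, the precursor of nociceptin, had 20, 25 and 29 counts in control, 141, 137 and 153 after overexpression and 12, 11 and 2 after siRNA. It rose by 2.53 after overexpression and fell by 1.52 after siRNA (adjusted p = 5.41e-09 and 0.000897).

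*POMC*, the best known substrate, was near 1 CPM in control (0.871 ± 0.326, SD, n = 3) and 1.52 ± 0.400 CPM after siRNA. Its rise of 0.80 had an adjusted p of 0.0219 and was lost with DESeq2 and without control replicate 1, control replicate 2 or siRNA replicate 2 (adjusted p up to 0.139). *NTS*, the neurotensin gene, had 16 and 58 counts over the control and siRNA libraries and is among the 4 that rose. It passed the filter through the siRNA group, since 1 control library and 0 overexpression libraries reached the minimum, so no p is given. *EDN1*, the precursor of endothelin 1, rose by 0.88 after overexpression (adjusted p = 0.00326). Some hormone genes under the filter, picked after their values were seen, had counts after siRNA only or nearly so. *VIP* had 0, 0 and 13 counts over the control, overexpression and siRNA libraries, *TAC1* 3, 0 and 23, *SST* 0, 1 and 11, and *GCG* 0, 0 and 6. Others under the filter did not, such as *UCN* with 16, 17 and 20, *GHRL* with 1, 1 and 1 and *NPY* with 3, 4 and 0. None of these was tested. How often genes under the filter in general have counts after siRNA only was not computed.

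Growth factors whose precursors are cut at convertase sites made up a longer list, of which 22 of 31 were tested. After siRNA 13 rose and 5 fell (median 0.74), beside 29.5% and 29.9% of all genes. After overexpression 9 rose and 4 fell (median 0.21), beside 23.9% and 23.4%. *TGFB2*, a classical substrate of furin, rose from 20.3 ± 1.56 to 99.0 ± 5.99 CPM after siRNA (log2 fold change 2.29, adjusted p = 1.86e-16). *TNFSF13B*, encoding the B cell factor BAFF, rose by 2.58 and *ANGPTL4*, an inhibitor of lipoprotein lipase, by 2.30 (adjusted p = 8.41e-11 and 1.52e-05). *IGF2* fell by 2.70 after siRNA and rose by 0.98 after overexpression (adjusted p = 7.90e-08 and 0.000151). *SEMA3F* and *SEMA3A*, which encode guidance proteins, fell by 1.18 and 0.87 after overexpression (adjusted p = 3.46e-10 and 2.53e-06). Both rose after siRNA, by 0.73 and 1.85 (adjusted p = 1.42e-08 and 2.74e-13). *NTF3*, a neurotrophin, rose by 0.82 after overexpression at an adjusted p of 0.0476, which was lost in 10 of 16 alternatives.

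All 30 receptors, proteases and matrix proteins of this kind were tested. After siRNA 10 rose and 14 fell (median -0.15), beside 29.5% and 29.9% of all genes. After overexpression 12 rose and 5 fell (median 0.17), beside 23.9% and 23.4%. The aggrecanase genes *ADAMTS1*, *ADAMTS5* and *ADAMTS4* rose after siRNA by 2.76, 2.45 and 1.87 (adjusted p = 4.84e-13, 1.67e-15 and 4.51e-15). After overexpression *ADAMTS1* and *ADAMTS5* rose by 1.24 and 1.32, while *ADAMTS4* fell by 0.45 (adjusted p = 6.02e-07, 6.81e-10 and 0.000174). *ITGA4*, an integrin chain that is cut by convertases, fell by 4.31 after siRNA (8 counts over the siRNA libraries and 169 over control, adjusted p = 7.61e-10). *SORL1*, a sorting receptor made as a proprotein, rose by 1.44 and *NOTCH3* by 1.06 after overexpression (adjusted p = 9.28e-06 and 5.33e-10).

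**Figure D4:**
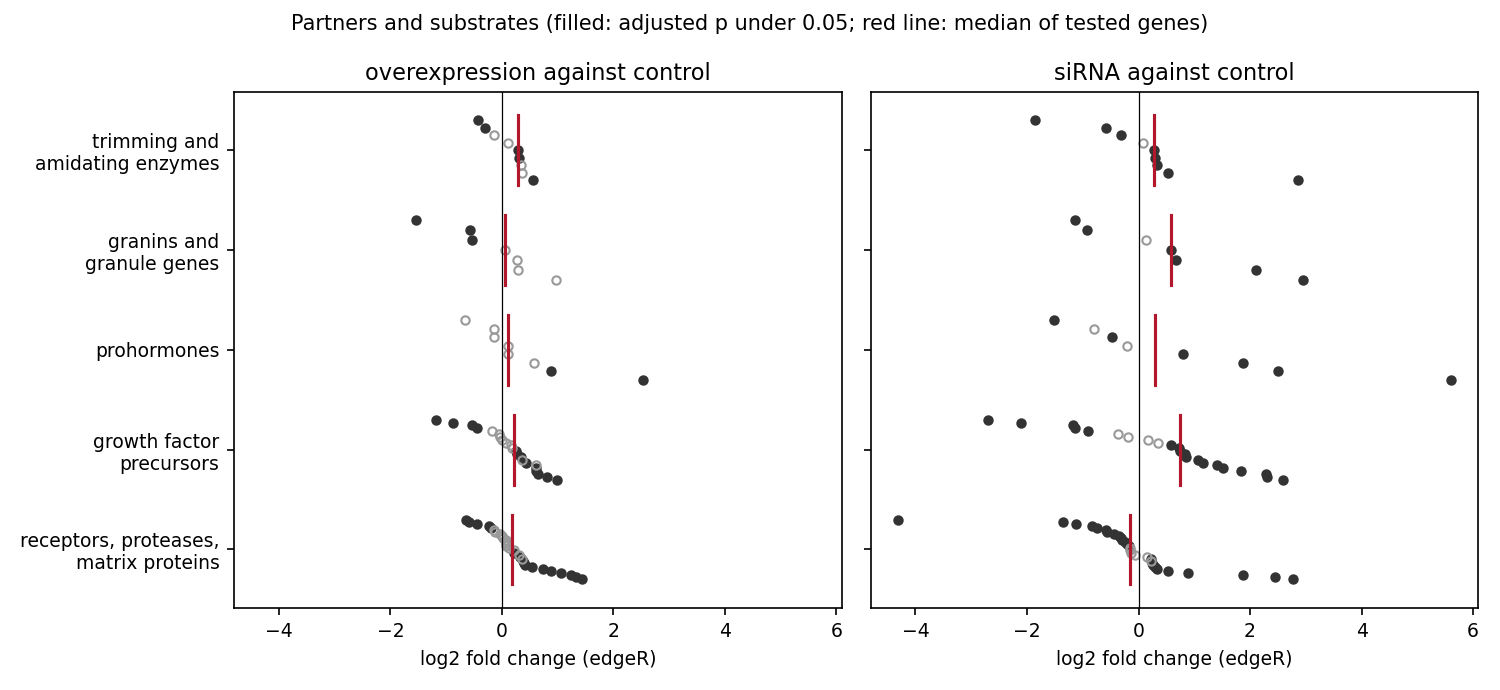
Log2 fold change (edgeR) of the tested genes of 5 lists in overexpression against control (left) and siRNA against control (right). Each circle is a gene, filled at an adjusted p under 0.05, and the red line is the median of the list. *TRH*, at 5.60 after siRNA, lies farthest to the right, and *ITGA4*, at -4.31 after siRNA, farthest to the left.

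Genes next to *PCSK1* in the RefSeq annotation of the pig genome did not share the size of its difference. These neighbours were listed after values had been seen. *ELL2*, an elongation factor gene on one side, rose by 1.63 after siRNA (adjusted p = 3.32e-15), and *CAST*, the calpastatin gene on the other, fell by 0.58 (adjusted p = 1.81e-08). The next genes outward, *GLRX* and *ERAP1*, rose by 0.23 and 0.45 (adjusted p = 0.00536 and 1.31e-05). Beside *PCSK6*, *TM2D3* and *SNRPA1* had changes of 0.14 and 0.11 after siRNA (adjusted p = 0.342 and 0.339). *CTDP1*, the next gene outward, rose by 0.40 (adjusted p = 0.000158). Beside *PCSK5*, *OSTF1* fell by 1.67 and *RFK* rose by 0.52 (adjusted p = 2.46e-13 and 0.000348). Beside *PCSK7*, *TAGLN* fell by 2.13 and *RNF214* had a change of 0.07 (adjusted p = 1.05e-16 and 0.439). Beside *FURIN*, *BLM* and *FES* had changes of 0.04 and -0.04 (adjusted p = 0.876 and 0.626).

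Likeness was measured as Pearson's r of log2(CPM + 1) over the 9 libraries, which fall into 3 groups with the siRNA libraries apart, so that these values mostly reflect that split. The genes closest to *PCSK1* were *PDE3B*, a phosphodiesterase gene, *PADI1*, *SERPINE2*, *VEGFA* and *SIK1*, a kinase gene induced by cyclic AMP, with r of 0.998 to 0.999. *PDE3B* stood at 1.88 CPM in control, 0.845 after overexpression and 33.7 after siRNA. Those closest to *PCSK6* were *LOXL4*, *DDAH1*, *SGCB*, *ACTA2* and *FABP3*, also with r of 0.998 to 0.999. *ACTA2*, the smooth muscle actin gene, stood at 6088, 6925 and 506 CPM. *PCSK5* was closest to *CFLAR*, *FZD5*, *ELL2*, *UGT1A6* and *VWA5A* (0.995 to 0.998), *FURIN* to *HAGH*, *FOLR3*, *RAB3A*, *PFKP* and *LRPAP1* (0.974 to 0.986), and *PCSK7* to *UBXN11*, *NSUN4*, *PRKAR1B*, *USP28* and *RNPEP* (0.925 to 0.962).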

How the data were processed

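Reads were checked with FastQC and aligned with HISAT by the authors, who deposited estimated counts and FPKM per gene in each library. For the counting tool, genome build, annotation and strand, no entry was found in the sources used here. Sample titles identified the 18 columns of values. Estimated counts were rounded (5.38% were not whole). Genes kept by filterByExpr (12721) were tested in R 4.3.3 with edgeR 4.0.16 (TMM, robust quasi-likelihood F test, 1 fit of 9 libraries) with Benjamini-Hochberg adjustment over all of them. A gene passed at an adjusted p under 0.05. Standard errors are the absolute log2 fold change over the square root of F. The code of the fit was checked on simulated data. These used its own estimates of the spread and far fewer changed genes than the libraries here. RefSeq (Sscrofa11.1) was used for gene order only.

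1 gene of the lists is not reported here. The members and lists were chosen with earlier results of these data known. Named genes are the 5 convertases, their relatives and partners chosen by name, the passing genes of largest change (4 at most per list and comparison), and the 5 genes most like each convertase (mean of at least 1 CPM). *TAC1*, *VIP*, *SST*, *GCG*, *CHGA*, *STMN2*, *LPL*, *FABP4*, *PNPLA2* and the genes beside the convertases were added after their values were seen. So were *UCN*, *GHRL*, *NPY*, *PPARG*, *CEBPA*, *CIDEC*, *COL1A1*, *CTSB* and the macrophage genes named. Alternatives were DESeq2 1.42.0, library totals, no filter, a stricter filter, the 2 compared groups only, the replicate number as a block, limma 3.58.1 on log2(FPKM + 1) and log2(FPKM + 0.1), and each library left out in turn.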

Additional observations from a re-analysis of the deposited data

How the results depend on the processing

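The counts of genes past the threshold stayed within 1.5 times their main value (6020 for overexpression and 7552 for siRNA against control) under every alternative. *PCSK1* in overexpression against control passed with DESeq2 (log2 fold change -4.70) and could not be tested with the 2 compared groups only, where the filter removed it. With limma on log2(FPKM + 1), siRNA against control gave 5.63 for *PCSK1* and -1.42 for *PCSK6*, and overexpression against siRNA gave -5.96 and 1.45. With log2(FPKM + 0.1) the latter was -9.14 for *PCSK1*. A larger pseudocount shrinks differences of low values. Leaving out 1 library at a time gave *PCSK1* 7.13 to 9.83 in siRNA against control, the highest without control replicate 3, and -13.00 to -11.63 in overexpression against siRNA, the lowest without overexpression replicate 2. With no filter, 10 of the 19 prohormone genes in the file passed after siRNA, in place of 6 of the 8 tested. The added genes lie under the filter, with at most 23 counts over the libraries of a group. They are no further evidence, and no share of all genes is given for this setting.

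The replicate numbers showed no clear pairing of the samples. Deviations of samples with the same number correlated between -0.124 and 0.213, and those with different numbers between -0.258 and 0.185. With 3 libraries a group these values cannot settle whether samples were paired. In a fit with a replicate block, 5964 and 7511 genes passed and the log2 fold changes of *PCSK1* were -4.53 and 7.63. At these depths *PCSK1* in control and overexpression is a matter of 77 and 3 counts.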

Other observations

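Control replicate 3, which held 66 of the 77 control counts of *PCSK1*, also had the highest control level of many, but not all, other genes that were high after siRNA. Of 71 genes with at least 10 CPM after siRNA and a mean at least 16-fold that of control, 38 were highest in control replicate 3, 19 in replicate 2 and 14 in replicate 1. Of 16 genes at least 16-fold lower after siRNA, these numbers were 5, 8 and 3. The excess of control replicate 3 over the mean of the other controls, as a share of the siRNA level, had a median of 0.447% over the 71 genes, with a range from -4.02% to 6.80%. It was 1.19% for *PCSK1*, 6.80% for the cytokine gene *LIF* and 6.09% for *IL11*. Among the negative values were -3.23% and -2.39% for the interferon-induced genes *OAS1* and *DDX58*. *PCSK1* stood 12.1-fold above the mean of the other controls there. These genes were chosen after their values were seen, and what moves with this library was not tested.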
